A study of Mus musculus with 8 samples.

Results

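A set of 10 liver-associated plasma protein genes, Rbp4, Ttr, Serpina6, Ambp, Serpina1b, Fgb, Fgg, Trf, Apoa4 and Apob, were followed through 8 single-colour Agilent arrays of mouse dorsal pancreatic epithelium at e12.5. They were chosen by the measured signal itself, because it did not rise in all Sox9 mutant samples or was lower there, so that their difference between the genotypes is given for them as a description, without a test. The 10 genes carried 12 of the 41174 non-control probes, and 27828 gene names were on the array. The 9 genes other than Apob had 1 probe each, and Apob had 3.

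The mutant embryos were Sox9fl/fl; Pdx1-Cre, in which the Cre recombinase deletes the floxed Sox9 alleles in cells that express Pdx1 and in their descendants. The wild-type embryos were Sox9fl/fl littermates, which carry the floxed alleles but lack Cre, so that genotype and the presence of Cre are 1 split of the samples. The parents were Sox9-flox mice of a mixed FVB/N x C57Bl/6J background and Pdx1-Cre mice on C57Bl/6J. Each of the 4 arrays per genotype, written here as WT1 to WT4 and MUT1 to MUT4, held RNA pooled from the hand-dissected dorsal pancreata of 3 embryos, of which about 250 ng was amplified and labelled with Cy3. The series' design text gives a smaller number of biological replicates than there are arrays, so that a repeat hybridisation of a pool cannot be told from a separate pool, and p-values measure the spread between these arrays.

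The fetal and adult liver makes most of the proteins that circulate in blood, and their genes are read under factors such as HNF4, FOXA and C/EBP proteins. The pancreas, like the liver, arises from the foregut endoderm and uses several of the same factors, and some of these genes are known outside the liver: Ttr in the choroid plexus and the pancreatic islets, Apob and Apoa4 in the intestine, Trf in the brain and Rbp4 in fat. The 10 genes cover carriers of retinol, thyroid hormone and steroids (Rbp4, Ttr, Serpina6), protease inhibitors (Ambp, Serpina1b), chains of the clotting protein fibrinogen (Fgb, Fgg), the iron carrier transferrin (Trf) and apolipoproteins (Apoa4, Apob).

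Signals are log2 values of the background-subtracted intensity, with 0 set at the 75th percentile of each array. Levels of different probes are not compared, since probes differ in their response. Sox9 itself, on its brightest probe, fell by 2.70 on the log2 scale in the mutants (SE 0.517, limma, adjusted p = 0.0253), and it lost the call when WT1, WT2, WT4 or MUT1 was left out. Of 18506 genes tested, 994 passed an adjusted p of 0.05 (limma), 706 of them lower in the mutants. The share of spots marked well above background ranged from 59.4% to 77.7% over the arrays. The arrays lay on 3 slides: slide 1 held WT2 and MUT3, slide 2 held WT3, MUT1 and MUT4, and slide 3 held WT1, WT4 and MUT2. The mean of 3 Y-linked genes lay between -6.58 and -5.19 in WT1, WT2 and WT4, at -1.13 in WT3, and between -1.87 and -0.17 in the mutant arrays, so that the sex of the embryos ran in part with genotype.

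The sequences below belong to the genes on which the pattern turns. Serpina1b is 1 of several near-identical mouse genes for alpha-1-antitrypsin. The 60-base probe of Serpina1b is shown with that of its paralog Serpina1c, because the signals of these probes differed in the same direction. A comparison of the probes with each other cannot decide whether they are separate measurements. Letters follow the transcript, mm8 positions were taken from the scanner files, and nothing is in capitals because no part is marked.
Serpina1b probe, chr12:104131529-104133028, minus strand: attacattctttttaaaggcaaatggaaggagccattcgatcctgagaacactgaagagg
Serpina1c probe, chr12:104300103-104300162, minus strand: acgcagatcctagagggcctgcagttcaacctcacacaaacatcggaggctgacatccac
The listed span of the Serpina1b probe is 1500 bases for 60 bases of probe, so its match is split by a gap in the genome. The longest run that the probes named for Serpina1b and Serpina1c have in common is 6 bases, and the probe of Serpina1d shares at most 5 bases with either. Whether each probe also matches the transcripts of the other paralogs was not tested, so which paralog was measured is uncertain. Serpina1a and Serpina1e had no probe under their own names.

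The promoters of the paralogs are shown because the probes named for them differed together. From the RefSeq promoter table on GRCm38.p6, which covers 250 bases before to 50 after each start site, 56 bases that hold the letters GTTAAT are printed, with these letters in capitals.
Serpina1b, chr12:103738200-103738255, minus strand: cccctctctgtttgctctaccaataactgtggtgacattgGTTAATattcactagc
Serpina1c, chr12:103904962-103905017, minus strand: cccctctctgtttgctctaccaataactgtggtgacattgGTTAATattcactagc
Serpina1d, chr12:103773634-103773689, minus strand: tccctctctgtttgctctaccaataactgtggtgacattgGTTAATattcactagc
Fgb, chr3:83049877-83049932, minus strand: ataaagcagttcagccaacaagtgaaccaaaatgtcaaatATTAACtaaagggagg
The window of Serpina1c was identical to that of Serpina1b in all 56 bases and that of Serpina1d in 55. Fgb, which did not differ in the same way, carries these letters on the other strand, as ATTAAC, beginning 29 bases before the start. Of the 10 genes, 7 had a promoter in the table, 8 promoters in all since Rbp4 has 2 starts. GTTAAT or ATTAAC stood in 2 of the 8, those of Serpina1b and Fgb, against 7.1% of all 32851 promoters. On both strands, the HNF4 letters CAAAGTCCA stood in 0 of the 8 (0.475% of all promoters), the FOXA letters TGTTTAC in 1 (3.65%), the C/EBP letters TTGCNNAA in 4 (10.8%) and the SOX letters ACAAAG in 1 (18.7%). These are letter matches in a short window, searched after the differences were known.

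Among the carriers, Rbp4, which carries retinol from its stores to tissues, was lower in every mutant array than in every wild-type array. Its probe (A_51_P374752, mm8 chr19:38181783-38181842, minus strand) gave 6.18, 5.58, 5.66 and 5.42 in WT1 to WT4 and 4.67, 4.57, 4.61 and 4.78 in MUT1 to MUT4. The wild-type mean was 5.71 ± 0.33 and the mutant mean 4.66 ± 0.09 (SD, n = 4 each), a difference of -1.05 on the log2 scale or 2.07-fold. The mutant arrays lay within 0.21 of each other, a narrower range than the 0.76 of the wild-type arrays, where WT1 was highest. Within slides 1, 2 and 3 the difference was -0.97, -0.93 and -1.23. In RNA of a whole dissected tissue, fewer cells of a type and less RNA per cell cannot be told apart, and this holds for each difference below.

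Ttr, whose protein carries thyroid hormone and binds the retinol-carrying Rbp4 protein, did not separate the genotypes. Its signal was 0.80, -0.30, 0.04 and -0.32 in WT1 to WT4 and -0.10, -0.61, 0.02 and -0.29 in MUT1 to MUT4. The groups overlapped, with WT1 above all others and 3 of 4 mutant arrays inside the wild-type range. The mean difference of -0.30 (wild-type 0.05 ± 0.52, mutant -0.24 ± 0.28, SD, n = 4 each) was -0.05 without WT1 and -0.18 without MUT2, so that single arrays carried much of it. Within slides it was 0.31, -0.23 and -0.85.

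Serpina6, the gene of the corticosteroid carrier of blood, was lower in most mutant arrays but not in all. Its probe (A_51_P133562, mm8 chr12:104047720-104047779, minus strand) gave 4.05, 3.43, 3.30 and 4.25 in WT1 to WT4 and 3.07, 2.98, 1.98 and 3.79 in MUT1 to MUT4. MUT1, MUT2 and MUT3 lay below every wild-type array, while MUT4 lay above WT2 and WT3. The means were 3.76 ± 0.46 and 2.96 ± 0.74 (SD, n = 4 each), a difference of -0.80 that was -0.48 without MUT3 and -1.08 without MUT4. Within slide 2, where WT3 stood against MUT1 and MUT4, it was 0.13, and within slides 1 and 3 it was -1.45 and -1.17.

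Ambp encodes a precursor that is cut into the haem-binding alpha-1-microglobulin and the protease inhibitor bikunin, and it had the widest difference of the 10 genes in the direction of lower mutant signal. Its probe (A_51_P145785, mm8 chr4:62629713-62630038, minus strand) gave 7.13, 6.28, 6.47 and 6.47 in WT1 to WT4 and 4.95, 4.78, 4.86 and 5.38 in MUT1 to MUT4. The groups did not overlap, WT1 was the highest of the wild-type arrays and MUT4 the highest of the mutant arrays. The means were 6.58 ± 0.37 and 4.99 ± 0.27 (SD, n = 4 each), which is a difference of -1.59 or 3.01-fold. Within slides 1, 2 and 3 it was -1.41, -1.30 and -2.01, and it stayed between -1.72 and -1.41 when any 1 array was left out.

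Serpina1b, from the alpha-1-antitrypsin family of inhibitors of neutrophil elastase, gave 1.63, 1.45, 1.42 and 1.09 in WT1 to WT4 and 0.52, 0.18, -0.22 and 0.38 in MUT1 to MUT4. Every mutant array lay below every wild-type array. The difference was -1.18 or 2.27-fold (means 1.40 ± 0.22 and 0.21 ± 0.32, SD, n = 4 each), and -1.67, -0.97 and -1.19 within slides 1, 2 and 3. The paralogs are no members, they were listed with earlier results known, and their probes may not be separate measurements. Serpina1c fell by 1.32 (SE 0.207, limma, adjusted p = 0.0129), and Serpina1d fell by 1.28 (SE 0.215, limma, adjusted p = 0.0159), each with no overlap between the groups and past the threshold whichever array was left out. In mutant arrays the Serpina1c probe gave 0.19, 0.07, -0.65 and 0.16, with MUT3 lowest as for Serpina1b, and that of Serpina1d gave 4.87, 4.57, 4.21 and 4.66, again with MUT3 lowest.

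**Figure D1:**
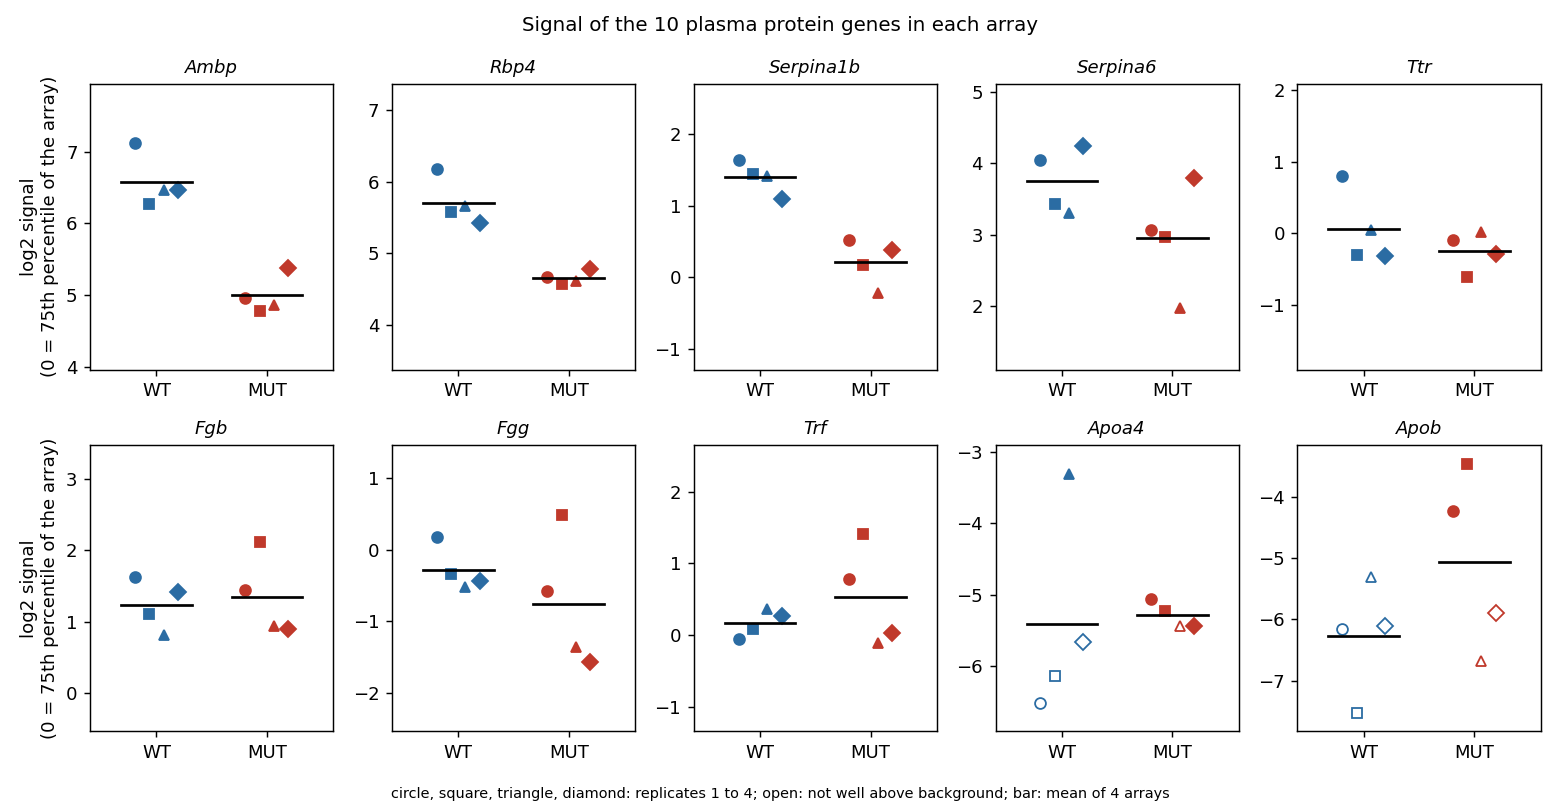
Log2 signal (0 is the 75th percentile of the array) of each gene in the 4 WT and 4 MUT arrays, with a bar at the mean, replicates 1 to 4 as circle, square, triangle and diamond, and open symbols where the spot was not well above background; each panel has its own range of levels, and Apob is shown by probe A_52_P441070. Ambp, Rbp4 and Serpina1b separate the groups without overlap, Fgb, Fgg and Trf have MUT2 as their highest array, and Apoa4 and Apob have open symbols.

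Fibrinogen is built from alpha, beta and gamma chains, made by the neighbouring genes Fga, Fgb and Fgg, and neither member chain differed in 1 direction. The Fgb probe (mm8 chr3:83128339-83128398, minus strand) gave 1.62, 1.11, 0.82 and 1.41 in WT1 to WT4 and 1.45, 2.12, 0.94 and 0.91 in MUT1 to MUT4. MUT2 was above every wild-type array and the other 3 mutant arrays were inside the wild-type range. The difference was 0.11 (means 1.24 ± 0.35 and 1.35 ± 0.57, SD, n = 4 each), and it turned to -0.14 without MUT2 and to -0.03 without WT3, so that its sign rested on single arrays.

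The Fgg probe (mm8 chr3:83100830-83100889, plus strand) gave 0.18, -0.33, -0.52 and -0.44 in WT1 to WT4 and -0.57, 0.49, -1.36 and -1.56 in MUT1 to MUT4. MUT2 was again above every wild-type array, and the other 3 mutant arrays were below every wild-type array. The means were -0.28 ± 0.31 and -0.75 ± 0.93 (SD, n = 4 each), and the difference of -0.47 became -0.89 without MUT2, -0.27 without MUT3 and -0.20 without MUT4. The alpha chain gene Fga was too dim for the filter: it was well above background on MUT1 and MUT2 and on no other array, with a mean difference of 0.23. Within slide 3, which holds MUT2, the difference was 0.60 for Fgb and 0.62 for Fgg, and within slide 1 it was -0.17 and -1.03.

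Trf, the gene of transferrin (probe at mm8 chr9:103073389-103074004, minus strand), gave -0.06, 0.08, 0.36 and 0.27 in WT1 to WT4 and 0.78, 1.41, -0.10 and 0.02 in MUT1 to MUT4. MUT1 and MUT2 were above every wild-type array, MUT4 was inside their range and MUT3 was just below it. The difference of 0.36 (means 0.16 ± 0.19 and 0.53 ± 0.71, SD, n = 4 each) was 0.07 without MUT2 and 0.57 without MUT3. Within slides 1, 2 and 3 it was -0.19, 0.04 and 1.30.

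The apolipoproteins were at the edge of detection. Apoa4, made mainly in the intestine in adult mammals, was well above background on WT3, MUT1, MUT2 and MUT4, and just reached the filter of 4 arrays. Its probe (mm8 chr9:45992573-45993316, plus strand) gave -6.51, -6.13, -3.31 and -5.66 in WT1 to WT4 and -5.06, -5.23, -5.44 and -5.43 in MUT1 to MUT4. WT3 stood far above every other array, and the difference of 0.11 became 0.81 without it, -0.26 without WT1 and -0.13 without WT2.

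Apob, the structural protein of very-low-density lipoprotein and chylomicrons, was not above background on any wild-type array, so those arrays give a bound and no fold change was tested. Its 2 adjoining probes are printed because both were well above background on MUT1 and MUT2 and on no other array.
Apob probe A_51_P470542, mm8 chr12:8042336-8042395, plus strand: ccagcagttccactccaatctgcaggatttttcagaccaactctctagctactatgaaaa
Apob probe A_52_P441070, mm8 chr12:8042396-8042455, plus strand: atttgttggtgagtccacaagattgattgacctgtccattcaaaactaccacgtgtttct
On A_52_P441070 the signal was -6.15, -7.52, -5.31 and -6.11 in WT1 to WT4 and -4.24, -3.47, -6.68 and -5.90 in MUT1 to MUT4. Since 2 of the 4 mutant arrays were also not above background, no fold is given for either probe. The remaining Apob probe, at mm8 chr12:8037943-8038002, was well above background on no array. Fewer than 4 of the 8 arrays passed for any Apob probe, so Apob was not among the 18506 genes tested.

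Of the 10 genes, 9 passed the filter on dim probes, 8 of them well above background on all 8 arrays. In the fit over all genes, which called 5.37% of genes in either direction, 3 members were called lower, namely Ambp, Rbp4 and Serpina1b (3.81% of all genes), and 0 were called higher (1.56%). The same 3 genes had groups that did not overlap in the lower direction (7.98% of all genes), and 0 in the higher direction (7.23%). These counts are fixed by how the genes were picked, so nothing is read from them. The median difference of the 9 tested genes was -0.47, against 0.02 for all genes. At the edge of the rule, Trf and Apob had 2 of 4 mutant arrays above the highest wild-type array, and Fgb and Fgg had 1 of 4. Just outside it, plasma protein genes with all 4 mutant arrays above all wild-type arrays included Pros1, an anticoagulant cofactor, at 0.39 and Apoe, an apolipoprotein, at 0.44, both chosen after their values were seen.

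**Figure D2:**
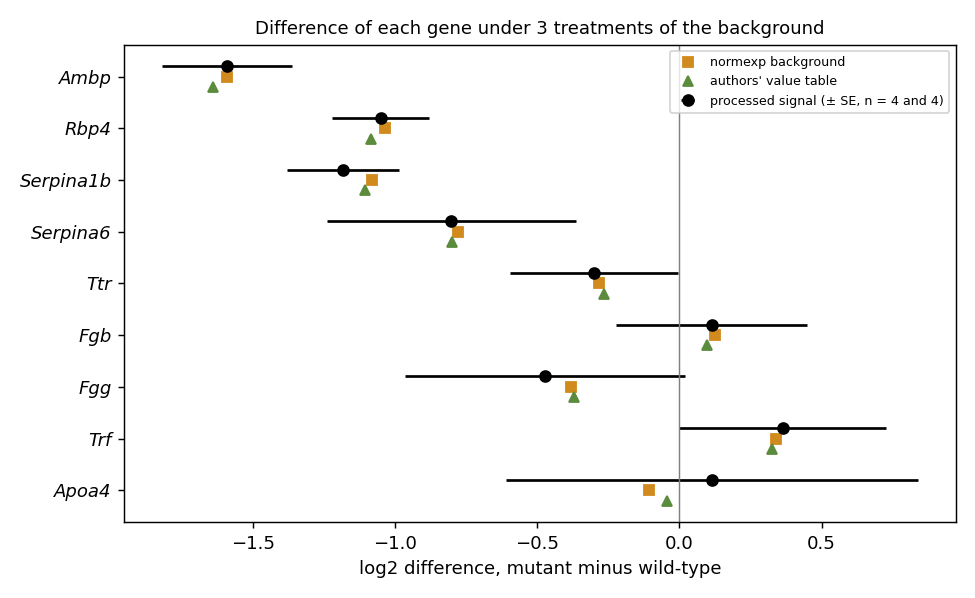
Mutant minus wild-type difference in log2 signal for the 9 tested genes, from the processed signal (black, ± SE from the SDs of 4 and 4 arrays), after normexp background correction (orange) and in the authors' deposited value table (green). The differences of Ambp, Rbp4, Serpina1b and Serpina6 keep their size in all 3, while that of Apoa4 changes sign around 0.

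The background treatment moved the bright genes little. In the authors' deposited table the differences were -1.64 for Ambp, -1.08 for Rbp4, -1.11 for Serpina1b and -0.80 for Serpina6. For the dim Apoa4, the processed signal gave 0.11, normexp -0.11 and the authors' deposited table -0.04.

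Within the mutant group the genes fell into different orders of arrays, as seen after the values were known. Fgb and Fgg ran MUT2, MUT1, MUT3, MUT4 from high to low, the order of Alb (albumin), Afp (alpha-fetoprotein) and Ahsg (fetuin-A). For Fgb, MUT3 and MUT4 were nearly tied (0.94 and 0.91). Trf ran MUT2, MUT1, MUT4, MUT3, the order of Apoa1 and Apoa2, the main proteins of high-density lipoprotein. Ambp and Rbp4 ran MUT4, MUT1, MUT3, MUT2, the order of the pancreatic progenitor factor Pdx1 and of the epithelial adhesion gene Cdh1. Serpina6 ran MUT4, MUT1, MUT2, MUT3, the order of the epithelial surface gene Epcam. In the wild-type arrays the likeness was partial. Ambp kept the order of Pdx1, though WT3 and WT4 were tied for Ambp at 6.47. WT1 was highest for Ambp and Rbp4. Cdh1 was highest in WT3 (3.11) and nearly equal in WT1, WT2 and WT4 (2.82, 2.83 and 2.82). WT3 was lowest for Fgb and Fgg and highest for Alb and Ahsg. Within genotypes, Rbp4 correlated at 0.90 with Gcg, the glucagon gene, at 0.54 with Pdx1 and at 0.25 with Cdh1. For Ambp these values were 0.86, 0.79 and 0.53. The values with Gcg lean heavily on WT1, where Gcg was 7.90 against 6.79, 6.87 and 6.93 in WT2 to WT4. On the mutant arrays Gcg ran MUT3, MUT4, MUT1, MUT2, not the order of Rbp4 and Ambp. Only 4 arrays underlie each order, and no test was made of the orders or the correlations.

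**Figure D3:**
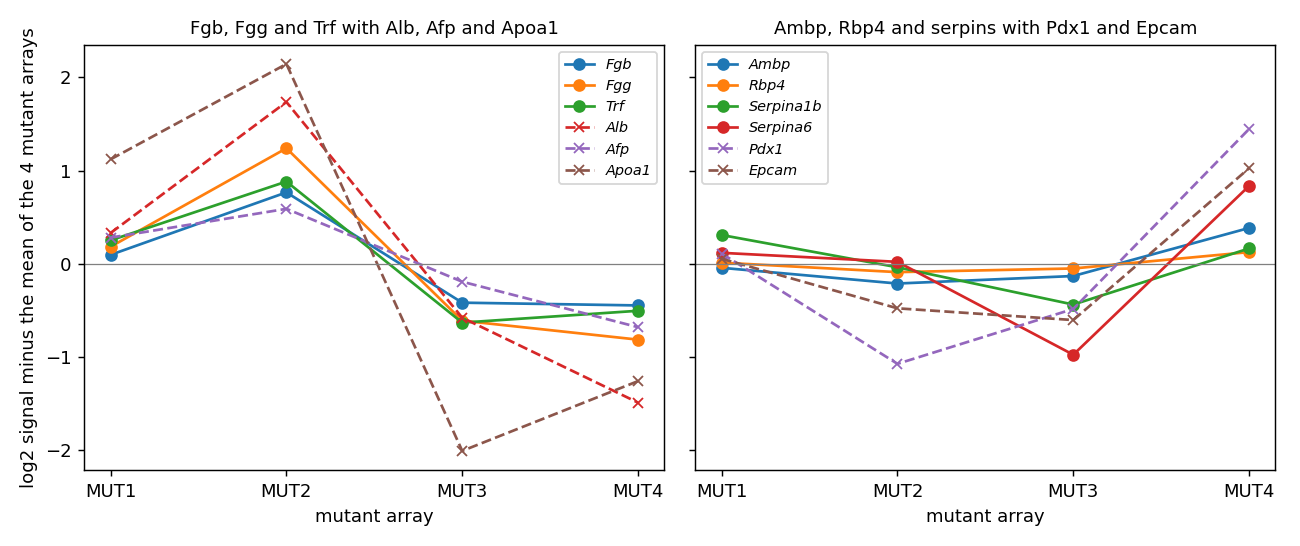
Log2 signal of each gene on the mutant arrays MUT1 to MUT4, less its mean over these 4 arrays; lines only join the points of 1 gene, since the arrays have no order. Fgb, Fgg and Trf (left, with Alb, Afp and Apoa1 dashed) are highest on MUT2, and Ambp, Rbp4 and Serpina6 (right, with Pdx1 and Epcam dashed) on MUT4, while Serpina1b is highest on MUT1.

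The marker lists moved with the same arrays. MUT2 was the highest mutant array for 9 of 12 hepatocyte markers measured (75%) and 37 of 61 other plasma protein genes (60.7%), against 27.5% of all genes. MUT4 was the highest for 15 of 16 general epithelial markers (93.8%) and 8 of 9 pancreatic epithelial markers (88.9%), against 14.6% of all genes. WT1 was the highest wild-type array for 6 of the 9 tested members, against 38.6% of all genes, and for 7 of 9 pancreatic markers. It was also highest for 16 of 20 endocrine markers, 14 of 22 liver-enriched factors, 6 of 12 hepatocyte markers and 30 of 61 other plasma protein genes. Among mesenchymal and macrophage markers it was highest for 3 of 13 and 1 of 10.

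By the likeness rule, which takes the root mean square difference of log2 values over the 8 arrays after centring within each genotype, the genes nearest to Fgg were Serpind1 (0.11), C3 (0.17) and Apom (0.19). All 3 encode plasma proteins: a thrombin inhibitor, a complement component and an apolipoprotein. With all 8 arrays centred on 1 mean the nearest were Scin (0.21), an unnamed transcript (0.30) and Gbgt1 (0.31), none of them in the plasma protein list. Within genotypes, Trf lay nearest to an unnamed transcript (0.15), Mocos (0.16) and 2310033K02Rik (0.17). The dim Apoa4 lay nearest to Jsrp1 (0.21), B630019A10Rik (0.22) and 1700016H13Rik (0.24). None of these neighbours of Trf and Apoa4 is in the plasma protein list either. The nearest to Ambp were Dnajc22 (0.07), Arhgef16 (0.08) and Plin5 (0.08), and the nearest to Rbp4 were Drc1 (0.06), Plin2 (0.07) and Cibar2 (0.07). Serpina6 lay nearest to Pkp3, a desmosome component, at 0.17, Rit2 at 0.17 and Kif12, a kinesin, at 0.19. Serpina1b lay nearest to Mrpl49 (0.07), Zfp786 (0.09) and Glt28d2 (0.11) within genotypes, with no paralog among them. With all 8 arrays centred on 1 mean, which lets the difference between the genotypes count, it lay nearest to Glt28d2 (0.12), Serpina1d (0.13) and Serpina1c (0.13). Between members, Ambp and Rbp4 differed by 0.14 and Fgb and Fgg by 0.26 within genotypes, whereas Ambp and Fgg differed by 0.70. These values share 8 arrays and are a description.

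The other plasma protein genes split as well. Of 86 listed, 83 had a probe and 61 passed the filter. Of these, 5 rose in the mutants, 7 fell and 49 did not pass (limma), with a median difference of 0.05 against 0.02 for all genes. Among all genes, 1.56% were called higher and 3.81% lower. The 5 were Alb (3.48), Pzp, Itih2 (2.60), Afp (2.23) and F12 (2.08), which include fetal carriers and inhibitors and a clotting factor. No wild-type array measured Pzp, a protease inhibitor, above background. Its fitted difference was 2.81 (limma, adjusted p = 0.0314), but its size is poorly measured. The mutant mean was 3.42-fold above a bound, the mean over wild-type arrays of the dimmest spot well above background. This bound is not a strict limit for an unmeasured spot. Pzp entered the test through its 4 mutant arrays alone, so that a difference was required of it. The authors' deposited table gave a smaller difference and no call (0.61, limma, adjusted p = 0.0793). Alb lost its call (adjusted p up to 0.0704, limma) when WT1, WT2, WT4 or MUT1 was left out, F12 without WT1, WT4 or MUT1 (up to 0.0652), and Pzp without WT2, WT3, WT4, MUT1, MUT2 or MUT3 (up to 0.0921). Afp and Itih2 kept theirs.

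The 7 that fell were Gc (-2.07), Agt (-1.72), Serpina1c, Serpina1d, Apoc1 (-1.14), Clu (-0.96) and F5. Gc carries vitamin D, Agt is the precursor of angiotensin and Apoc1 is an apolipoprotein. F5, a clotting cofactor, was well above background on 1 of 4 mutant arrays, so that its size is poorly measured: the fitted difference was -2.15, and it was -0.60 in the authors' deposited table. Gc, Agt, Apoc1 and Clu fall outside the naming rule and are given after their values were seen. F5, Agt and Apoc1 passed whichever array was left out, Gc did not without WT4 or MUT1 (adjusted p up to 0.0559, limma), and Clu did not without WT3, WT4 or any 1 mutant array (up to 0.0961).

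**Figure D4:**
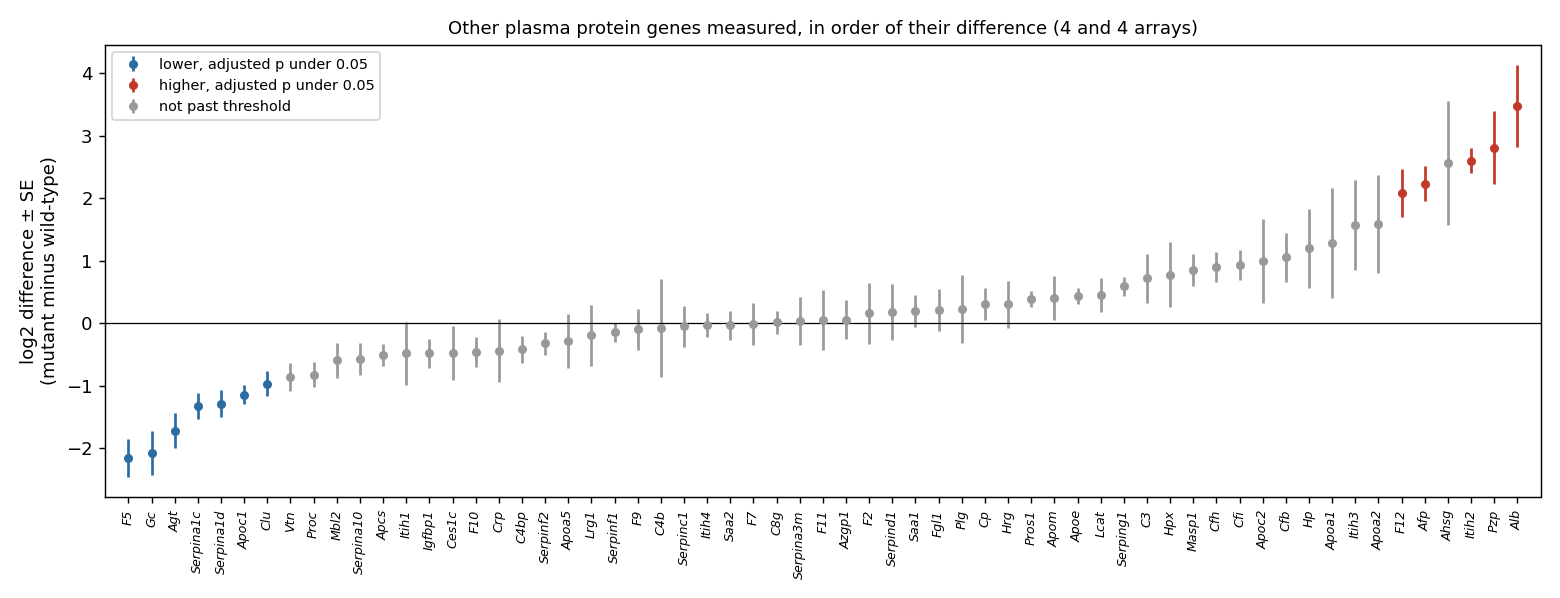
Mutant minus wild-type difference in log2 signal (± SE of the limma fit, 4 and 4 arrays) for the other plasma protein genes measured, sorted by difference, with genes past an adjusted p of 0.05 in blue (lower) and red (higher) and the rest in grey. Blue genes run from F5 to Clu and red genes are F12, Afp, Itih2, Pzp and Alb; Pzp and F5 are drawn at their fitted values, although 0 wild-type arrays measured Pzp and 1 mutant array measured F5 above background.

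Functional partners of the members were read against the 1.56% of all genes called higher and the 3.81% called lower. Of 15 measured genes in a list of partners of the carriers, 1 rose and 0 fell. It was Tnfaip6, whose product is not of retinol, thyroid hormone or steroid handling but acts on the bikunin-containing inter-alpha-inhibitor of plasma, at 0.68 (limma, adjusted p = 0.0271). Stra6, the receptor of the Rbp4 protein, had a difference of -0.31 (limma, adjusted p = 0.776). Of 24 genes of lipoprotein assembly and uptake, 1 rose, Lpl (0.59), the lipase of blood lipoproteins, and 0 fell. Mttp, which loads lipid onto Apob, was at -0.18. Of 16 iron genes, 3 rose: Bmp6, a signal for hepcidin (limma, adjusted p = 0.00839), the iron exporter Slc40a1 (0.99) and the iron oxidase Heph (0.63), while the transferrin receptor Tfrc was at -0.24. Of 14 genes of fibrinogen and clotting, 2 rose, the plasminogen activators Plau (0.72) and Plat (0.66). Plau and Plat lost their calls without any 1 array but MUT4, Heph without any array but MUT3 or MUT4, Tnfaip6 without WT1, WT3, WT4, MUT1, MUT3 or MUT4, and Lpl without WT1, WT2, WT3, MUT1 or MUT2.

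Of 22 liver-enriched transcription factors measured, 9 fell and 1 rose, where 3.81% of all genes were called lower and 1.56% higher. Those that fell included Nr5a2 (-2.48), Onecut1 (-2.09), Prox1 (-2.05), Foxa3 (-2.05), Foxa2 (-1.97), Hnf4a (-1.50) and Cebpa (-0.55), and Onecut2 rose by 1.83. Several of these factors are shared by pancreatic epithelium and liver. Another Hnf4a probe above background differed by -0.34. Cebpa lost its call without any 1 array but MUT4, and Onecut1 without WT1 or WT4. Of 24 hepatocyte enzymes and transporters, 1 rose and 4 fell, among them Slc2a2 (-1.88), a glucose transporter also of beta cells, and the urea cycle genes Arg1 (-1.18) and Asl (-0.62). Arg1 lost its call without any 1 array but MUT4, and Asl without WT1, WT2, WT4, MUT1 or MUT2.

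The genes beside the members on the chromosome, from the RefSeq order on GRCm38.p6, were picked after values were seen. Their counts are set against the 3.81% of all genes called lower and the 1.56% called higher. Among 35 genes within 2 protein-coding genes on either side, 24 were measured, of which 20 did not pass, 4 fell and 0 rose. Kif12 beside Ambp fell by 2.35 (SE 0.315, limma, adjusted p = 0.00889), and Ffar4 beside Rbp4, a fatty acid receptor, fell by 1.55 (limma, adjusted p = 0.00812). Dsg2 beside Ttr, a desmosomal cadherin, fell by 1.07 (limma, adjusted p = 0.0440) while Ttr itself did not differ in 1 direction, and it lost the call without any 1 array but MUT3. Serpina1d beside Serpina1b is given above. None of the measured neighbours of Trf, Apob, Apoa4, Fgb or Fgg passed. In the list of chromosomal neighbours, 5 of 21 fell and 0 rose.

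Markers of other cell types are given for the dissected tissue, with the summed linear level of a list in multiples of the 75th percentile signal. Beside their counts by test stand 1.56% of all genes called higher and 3.81% called lower. Hepatocyte markers summed to between 13.2 and 19.5 in wild-type and between 43.4 and 114 in mutant arrays, with 3 of 12 higher and 1 lower by test, while the hepatocyte genes Cps1 and Slc10a1 were above background on no array. Afp alone made up 85.1% to 93.7% of that sum, and without it the other 11 summed to between 1.31 and 2.45 in wild-type and between 2.99 and 17.0 in mutant arrays. General epithelial markers summed to 103 to 142 and 36.9 to 58.5 (14 of 16 lower), pancreatic epithelial markers to 67.6 to 138 and 10.6 to 34.1 (8 of 9 lower), and endocrine markers to 162 to 328 and 98.2 to 122 (10 of 20 lower). Gcg made up 68.3% to 78.9% of the endocrine sum, and Cpa1 66.9% to 88.1% of the pancreatic epithelial one. Higher were 4 of 13 mesenchymal, 4 of 10 macrophage, 2 of 11 endothelial and 2 of 8 mesothelial markers, with 0 lower in each, and 0 of 11 erythroid markers passed in either direction. Of 8 markers of visceral endoderm and yolk sac, 2 were higher and 2 lower, of 8 neural crest and glial markers 3 were lower, and of 4 gut markers 1 was lower. The part of these cell types, and of embryo sex, in the members' differences was not tested. WT3, whose Y-linked signal was within the range of the mutant arrays, had an Ambp signal of 6.47, an Rbp4 signal of 5.66 and a Serpina1b signal of 1.42. Each lay inside the range of the other wild-type arrays. This is 1 pool, and it does not stand for all mutant arrays. Xist, a marker of female cells, was at 3.44 in WT3, at -5.73 in MUT1 and between 3.11 and 3.56 in the other mutant arrays. Nothing on embryo sex is concluded from it.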

How the data were processed

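RNA pooled from embryos was measured on 8 single-colour arrays. The deposited processed signal is an intensity, background subtracted and detrended within each array by the authors with Agilent Feature Extraction 9.5.3.1, per the file headers, and not normalized between arrays. The mean signal and its local background, deposited as scanned, are intensity too, and the deposited quality flags (other) mark each spot, per the file headers. The authors' deposited value table holds intensity with a median of 227 on every array; the submitters' processing notes name limma, and its background method is not given in the sources used here. Its values are linear, neither centred nor ratios, so that no direction is unknown.

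Log2 processed signal minus each array's 75th percentile was used, flagged and control spots were left out, and spots of a probe were averaged. Probes well above background on at least 4 arrays were kept (27389 of 41174), each gene by its brightest kept probe. The genotypes were compared with limma 3.58.1 in R 4.3.3 (lmFit, eBayes), with a two-sided p, Benjamini-Hochberg adjusted over 18506 genes, with no covariate; the fit was tested on simulated data. Promoter letters and probes were read with Python 3.11.15, pandas 2.3.3 and biopython 1.88, and figures drawn with matplotlib 3.10.9. No mm8 annotation was used here, so exons are not given. The members and all gene lists were chosen with earlier results of these data known. The genes named are the members, fixed partners, up to 6 genes past the threshold with the largest difference from each list, and 3 nearest genes per member whose SD over the arrays was at least 0.5, within genotypes or over all arrays. Alternatives were another background correction, the authors' table, quantile normalization, other filters, the mean of probes, slide and replicate blocks and leaving out each array. Some members of the gene lists are not reported here by name. The number of arrays limits the precision.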

Additional observations from a re-analysis of the deposited data

How the results depend on the processing

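Most of the 16 or 17 alternative runs per gene could not test the member differences. Other filters, the replicate block and, for genes with 1 probe, the mean of probes left them unchanged. Leaving out 1 array can shift them only by less than the spread between replicates. With normexp, the authors' deposited table, quantile normalization and slide blocks, each of the 10 also moved by less than that spread. For Apob this spread was large: its difference was 1.20, but 0.30 with normexp and 0.29 in the authors' deposited table. No fold is read from these values. Over all runs the differences of Apoa4 and Fgb, near 0, changed sign (Apoa4 from -0.26 to 0.81, Fgb from -0.14 to 0.30). Ambp stayed between -1.72 and -1.41, Rbp4 between -1.15 and -0.89 and Serpina1b between -1.29 and -1.04. The count of all genes past the threshold, 994, was 419 with no filter on dim probes, where 27828 genes were tested, 1529 with slide as a random block, 340 with the replicate number as a block, and 395 to 976 when 1 array was left out; the cause was not tested. The share called higher was 29.0%, against 41.7% of 1256 in the authors' deposited table, 39.8% with probes above background on all arrays, 42 of the 419 genes with no filter, and 7.94% with the replicate block. The count of other plasma protein genes past the threshold, 12, was 7 without WT4 or without MUT1, 7 to 12 over all arrays left out, and 9 with the replicate block. The sample titles give replicate numbers but do not say whether these pair the arrays. Deviations of same-numbered arrays correlated at -0.35, -0.30, -0.00 and 0.09. These values cannot decide on pairing, since same-numbered arrays lay on different slides. In the authors' deposited table Cebpa, Plau and Tnfaip6 lost their calls, and smaller differences were found for F5 (-0.60), Foxa3 (-1.08), Hnf4a (-0.79) and F12 (1.16). Signal over background limits Apoa4 and Apob.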
